A study of Mus musculus with 30 samples.

Results

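The cytosolic ribosomal protein genes were followed across 30 RNA sequencing libraries of mouse dendritic cells. Members were the protein-coding genes of the count table whose mouse symbol is Rps or Rpl with a number, or Rpsa, Rplp0, Rplp1 or Rplp2. Of 392 genes with such a symbol, 290 had a biotype other than protein-coding, such as pseudogene. Of the 102 protein-coding ones, 10 Rps6k kinase genes and 6 genes with a pseudogene suffix were left out, which gave 86 members of 54532 genes in the table. These were 43 genes of the large subunit, 31 of the small subunit, 3 of the ribosomal stalk and 8 paralogues of another member, plus Rps19bp1, which carries the symbol but encodes a regulator of the deacetylase Sirt1 and not a ribosomal protein. The test kept 83 members among 12393 genes. Rpl10l (0 to 4 counts per library), Rpl39l (0 to 3 counts) and Rpl3l (0 to 4 counts) were too low to test.

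Bone marrow from Nlrx1-deficient and from wild-type (WT) mice was grown for 6 days with GM-CSF, a growth factor that turns myeloid precursors into dendritic cells. Nlrx1 is a NOD-like receptor family protein of mitochondria. Both genotypes were sampled before (0 h) and 3, 6, 9 and 12 h after live spores (conidia) of the mould Aspergillus fumigatus, labelled AF29, were added at 1 conidium per plated cell, with 3 libraries in each of the 10 groups. All groups share the GM-CSF culture, the 0 h groups received no conidia, and the allele and the sex and age of the mice are not named by the labels. No later group went without conidia, so effects of conidia and of hours in culture cannot be told apart. Nothing in the labels ties the 3 libraries of each group to different mice or dishes, and p-values therefore weigh only library-to-library spread, which could be technical.

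Library totals lay between 1722384 and 3509429 counts (median 2492886), of which ribosomal protein genes took 24523 to 50836 counts. Nlrx1 had 0 to 14 counts in Nlrx1-deficient libraries and 13 to 46 in WT libraries, or 2.49 ± 1.75 CPM and 9.32 ± 2.93 CPM (SD, n = 15 each), where CPM is counts per 1000000 of the TMM-scaled library size. The log2 difference of Nlrx1 averaged over times was −1.87 ± 0.28 (SE, edgeR adjusted p = 1.71e-05). The 10 markers of GM-CSF dendritic cells were detected in all groups, whereas those of B cells, T and NK cells, erythroid cells and mast cells or basophils, and Siglech of plasmacytoid dendritic cells, were at or near 0. In bulk libraries, fewer cells of a type and less RNA per cell cannot be told apart.

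A ribosome is built from ribosomal RNA and a fixed set of ribosomal proteins, whose genes are transcribed at high levels in growing cells. Most of their transcripts begin with a C followed by a run of pyrimidines, the 5′ terminal oligopyrimidine (TOP) motif. Through it the growth-sensing kinase complex mTORC1 and the RNA-binding protein Larp1 set how well they are translated and how long they last. Dendritic cells are known to change their rate of protein synthesis as they mature.

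The start region of these genes is shown first, for members that the results below turn on. RefSeq promoters (GRCm38.p6) were at hand for 66 of the 86 members, and each window runs from 30 bases before the annotated start to 20 bases into the transcript, 5′ to 3′ on the gene's strand. The first transcribed base is the 31st letter, and capitals mark runs of 5 or more C or T.
Rplp0, chr5:115559437-115559486, plus strand: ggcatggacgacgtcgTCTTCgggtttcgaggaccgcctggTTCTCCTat
Rplp2, chr7:141447621-141447670, plus strand: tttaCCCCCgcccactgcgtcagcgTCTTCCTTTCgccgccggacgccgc
Rps7, chr12:28635934-28635983, minus strand: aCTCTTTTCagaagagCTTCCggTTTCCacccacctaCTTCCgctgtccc
Rpl37, chr15:5116583-5116632, plus strand: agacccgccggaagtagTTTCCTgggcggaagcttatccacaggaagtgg
Rps26, chr10:128626487-128626536, minus strand: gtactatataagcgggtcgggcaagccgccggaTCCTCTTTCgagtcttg

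In these 5 windows the longest pyrimidine run had 7 bases for Rplp0, 10 for Rplp2, 8 for Rps7, 6 for Rpl37 and 9 for Rps26. The Rplp2 run spans the annotated start, and the Rps26 run begins just downstream of it. Of the 66 members, 14 (21.2%) had a C at the annotated first base followed by 4 bases that were each C or T. Of all 27025 genes with promoters at hand, 3.01% did. A gene was counted if any of its promoters matched, here and in the shares that follow. A run of at least 8 pyrimidines within 50 bases of the start stood in 53 of the 66 (80.3%), against 39.3% of all. The letters CCGGAAG, the core of sites for ETS family factors, stood on either strand of the 300 bases in 26 of the 66 (39.4%), against 9.93% of all. These matches describe the letters around annotated starts, which can lie some bases off the start used in these cells.

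Levels of the 83 tested members were steady within groups. Their median coefficient of variation within a group was 7.3%. By mean CPM over the 30 libraries the most abundant were Rpsa (592 CPM), Rpl4 (519 CPM), Rplp0 (507 CPM) and Rplp1 (495 CPM). Per kilobase of principal transcript, the longest where a gene has several, the 77 core subunit and stalk genes had a median of 183 CPM per kb. This scale depends on the annotated length, which was 499 bases for Rplp1, 1922 for Rpl15 and 5179 for Rps15a. Rplp1 was highest at 992 CPM per kb, followed by Rpl41 at 671 and Rpl23a at 454, and Rpl15 was lowest at 21.7. Some members were unsteady: the within-group coefficient of variation was 41% for Rpl22l1, 28% for Rpl6 and 25% for Rpl34. For Rpl24 the counts of an overlapping gene model, Gm28037, moved against it: over all libraries the coefficient of variation was 22.1% for Rpl24 alone and 7.46% for the sum of both. Opposite-strand genes with at least 5 counts in every library overlap Rps14, Rpl18, Rpl31, Rps18, Rpl12, Rpl35, Rpl28, Rps25, Rpl3, Rpl5, Rps28 and Rpl15. The highest is Ndst1 over Rps14, with 114 to 341 counts per library, and genes with fewer counts overlap others, such as Rpl32 (1 to 12 counts) and Rpl10a (0 to 6 counts). The strand setting of the counting is not given, so changes of these genes are uncertain. Same-strand gene models other than Gm28037 overlap members too. Among them are Gm27597 over Rpl19 (46 to 110 counts) and Gm20388 over Rpl13 (0 to 78 counts). Others are RPS10-NUDT3 over Rps10 (0 to 76 counts) and Mir5121 over Rpl13a (1 to 73 counts). How reads were divided between such models is not given, so changes of these members are uncertain as well.

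Ribosomal protein transcripts were lower in Nlrx1-deficient than in WT cells at every time on the TMM scale, while their shares of all counts overlapped at 0 and 3 h. Their summed level in Nlrx1-deficient cells was 14646 ± 444 CPM at 0 h, 14348 ± 243 at 3 h, 13972 ± 281 at 6 h, 13024 ± 425 at 9 h and 12628 ± 166 at 12 h (SD, n = 3 each). In WT cells it was 15536 ± 113, 16144 ± 374, 15700 ± 166, 15290 ± 456 and 14124 ± 52 CPM at the same times. The Nlrx1-deficient sum was thus lower by 5.73% at 0 h, 11.1% at 3 h, 14.8% at 9 h and 10.6% at 12 h, and the libraries of the genotypes did not overlap at any time.

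**Figure D1:**
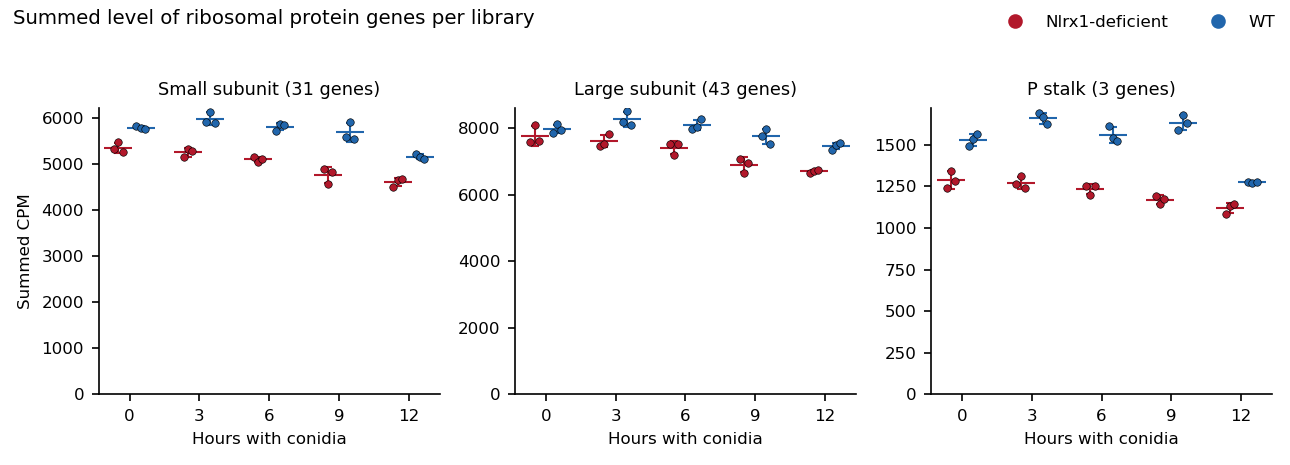
Summed CPM of the small subunit (31 genes), large subunit (43 genes) and stalk (3 genes) by hours with conidia, with 1 point per library, a bar at the group mean and 1 SD (n = 3). Nlrx1-deficient libraries lie below WT libraries at each of the 5 times, except for overlap of the large subunit sums at 0 h.

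With the 5 times averaged, edgeR's quasi-likelihood test called 49 of 83 members lower in Nlrx1-deficient cells and 1 higher (adjusted p under 0.05 over all genes). Of all 12393 genes, 12.2% were called lower, 12.6% higher and 24.9% in any direction. The median log2 difference of the members was −0.14, against 0.01 over all genes. The members called lower were 24 of 31 small subunit genes, 20 of 43 large subunit genes, all 3 stalk genes and 2 of 5 tested paralogues. Of the tested members, 42 (50.6%) had a lower Nlrx1-deficient mean at all 5 times, against 12.7% of all genes, and 0 had a higher mean at all 5, against 12.9%. In 14 (16.9%) all 3 Nlrx1-deficient libraries lay below all 3 WT libraries at all 5 times, against 1.06% of all genes.

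**Figure D2:**
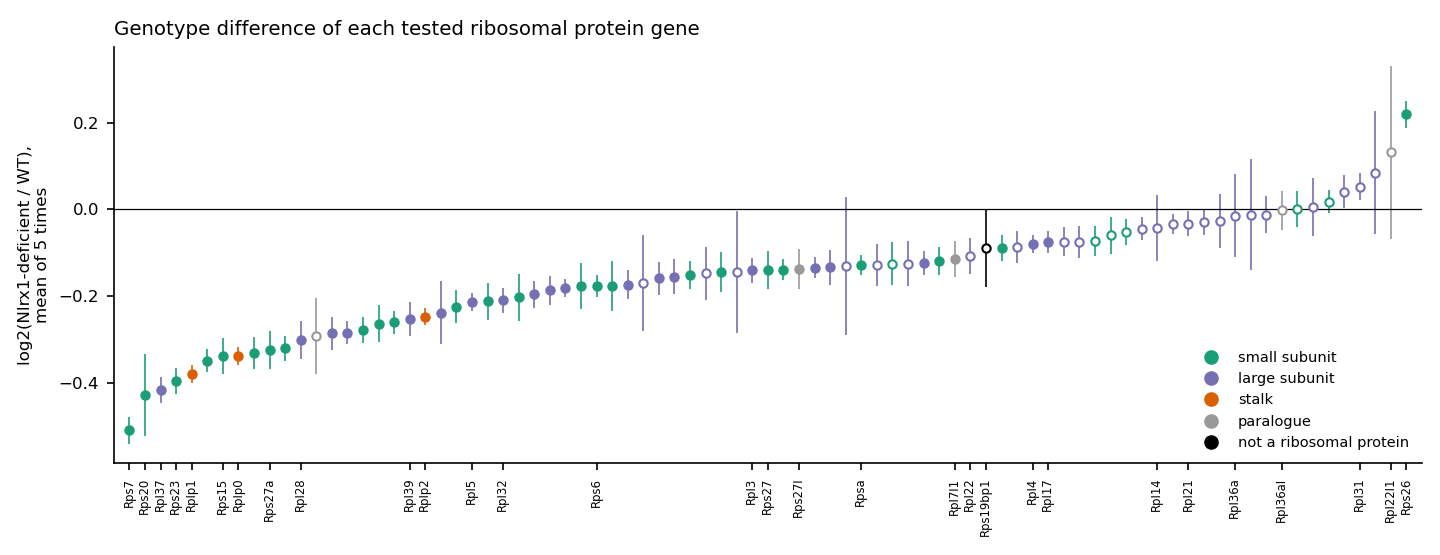
Log2 difference of each tested ribosomal protein gene, Nlrx1-deficient minus WT, averaged over the 5 times, in order of that difference, with bars of 1 standard error, colour by class, names under some points and filled points where the adjusted p is under 0.05. The 49 filled points below 0 run from Rps7 at −0.51 upwards, and Rps26 at 0.22 is the 1 filled point above 0.

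The stalk genes had the widest gap of the classes in summed level. Rplp0, Rplp1 and Rplp2 encode the acidic proteins that form the flexible stalk of the large subunit, which recruits elongation factors to the ribosome. Their sum was lower by 15.8% at 0 h, 23.4% at 3 h, 20.9% at 6 h, 28.3% at 9 h and 12.2% at 12 h, against 2.71 to 11.1% for the large subunit sum and 7.51 to 16.3% for the small subunit sum. The difference between classes was not tested.

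Rplp1 (chr9:61913284-61914542, GRCm38) had 461, 481 and 466 CPM at 0 h, 477, 483 and 453 CPM at 3 h, 443, 420 and 437 CPM at 6 h, 408, 382 and 410 CPM at 9 h and 360, 369 and 399 CPM at 12 h in Nlrx1-deficient cells. In WT cells it had 540, 571 and 564 CPM at 0 h, 652, 633 and 608 CPM at 3 h, 604, 545 and 545 CPM at 6 h, 576, 610 and 593 CPM at 9 h and 452, 453 and 455 CPM at 12 h. Every Nlrx1-deficient library lay below every WT library of its time. The log2 difference averaged over times was −0.38 ± 0.02 (SE, edgeR adjusted p = 1.08e-13), and it was called at each time, from −0.25 at 0 h to −0.57 ± 0.05 at 9 h. Rplp0 gave −0.34 ± 0.02 (adjusted p = 1.49e-12) and Rplp2 −0.25 ± 0.02 (adjusted p = 1.61e-10). At 9 h Rplp0 had 458, 420 and 423 CPM in Nlrx1-deficient cells and 595, 614 and 625 CPM in WT cells. Rplp2 had 329, 341 and 342 CPM in Nlrx1-deficient cells at 9 h and 421, 456 and 413 CPM in WT cells. Both were called lower at 0, 3, 6 and 9 h and missed the threshold at 12 h (edgeR adjusted p = 0.0674 for Rplp0 and 0.28 for Rplp2).

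Among small subunit genes Rps7 had the widest difference over the mean of times. Rps7 (chr12:28630854-28635953) encodes a protein needed to mature the small subunit's ribosomal RNA. It had 148, 165 and 153 CPM at 0 h, 139, 144 and 131 CPM at 3 h, 132, 140 and 141 CPM at 6 h, 131, 115 and 137 CPM at 9 h and 130, 142 and 135 CPM at 12 h in Nlrx1-deficient cells. In WT cells it had 194, 191 and 191 CPM at 0 h, 224, 232 and 230 CPM at 3 h, 202, 226 and 191 CPM at 6 h, 207, 235 and 207 CPM at 9 h and 141, 159 and 161 CPM at 12 h. The genotypes were apart from 0 to 9 h and overlapped at 12 h. Averaged over times the log2 difference was −0.51 ± 0.03 (adjusted p = 1.49e-12). It was −0.72 at 3 h and −0.76 ± 0.07 at 9 h (adjusted p = 2.63e-08).

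Rps23, whose protein lies at the decoding centre, differed by −0.40 ± 0.03 (edgeR adjusted p = 3.72e-11). At 9 h it had 234, 183 and 201 CPM in Nlrx1-deficient cells and 295, 324 and 311 CPM in WT cells, so no library overlapped. Rps15, which sits near the decoding site, differed by −0.34 ± 0.04 (adjusted p = 5.19e-07).

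Rps20 had the widest difference at 9 h but also wide spread. In Nlrx1-deficient cells it had 72.2, 96.6 and 80.1 CPM at 9 h and 112, 106 and 113 CPM at 12 h. In WT cells it had 145, 159 and 156 CPM at 9 h and 112, 76.8 and 69.2 CPM at 12 h. The genotypes were apart at 9 h and overlapped at 12 h. The log2 difference was −0.89 at 9 h (adjusted p = 0.0113), and it missed the threshold without Nlrx1-deficient replicate 1 (adjusted p = 0.064) or replicate 3 (adjusted p = 0.052) of that time. Its within-group coefficient of variation was 17.4%.

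Of the other small subunit genes with a role outside the ribosome or its assembly, Rps27a, made as a fusion with ubiquitin, differed by −0.32 (adjusted p = 1.94e-06) on average over times. Rps6, the classic substrate of the S6 kinases, differed by −0.18 (adjusted p = 5.52e-06). Rpsa, also known as a laminin receptor, differed by −0.13 (adjusted p = 0.000139). Rpsa was near level at 0 h, with 598, 595 and 563 CPM in Nlrx1-deficient cells and 620, 587 and 606 CPM in WT cells. At 12 h it had 496, 506 and 517 CPM in Nlrx1-deficient cells and 621, 597 and 585 CPM in WT cells, and no library overlapped.

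Rps26 went the other way. Its protein lies at the mRNA exit channel of the small subunit, where it contacts the bases upstream of the start codon. Nlrx1-deficient cells had 277, 290 and 278 CPM at 0 h, 269, 250 and 265 CPM at 3 h, 265, 253 and 232 CPM at 6 h, 224, 221 and 257 CPM at 9 h and 216, 216 and 205 CPM at 12 h. WT cells had 238, 222 and 217 CPM at 0 h, 192, 210 and 202 CPM at 3 h, 185, 220 and 233 CPM at 6 h, 190, 175 and 192 CPM at 9 h and 240, 242 and 231 CPM at 12 h. Nlrx1-deficient libraries were above all WT libraries at 0, 3 and 9 h and below them all at 12 h. The mean over times was 0.22 ± 0.03 (edgeR adjusted p = 6.22e-06), with calls of 0.32 at 0 h, 0.38 at 3 h and 0.33 at 9 h, and the 12 h difference of −0.16 missed the threshold (adjusted p = 0.349).

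**Figure D3:**
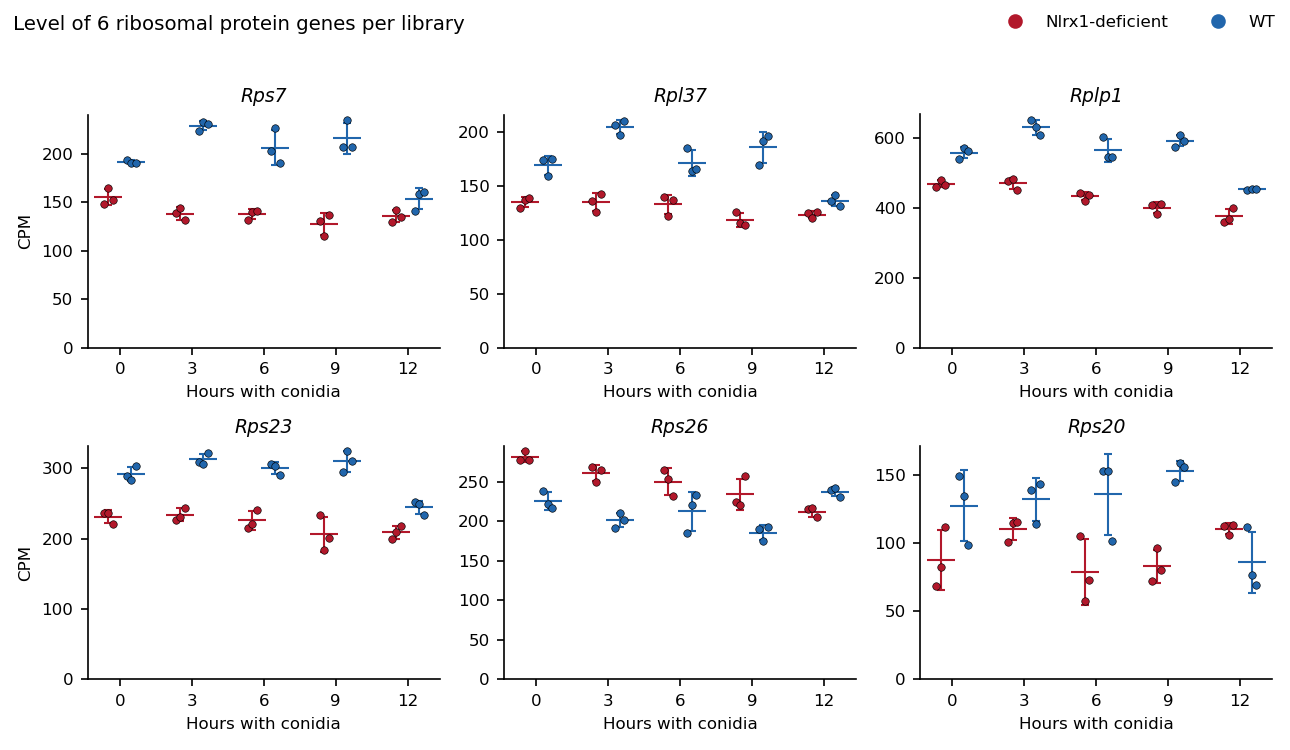
CPM by hours with conidia for Rps7, Rpl37, Rplp1, Rps23, Rps26 and Rps20, with 1 point per library, a bar at the group mean and 1 SD (n = 3). Rplp1 and Rps23 stay lower in Nlrx1-deficient cells at all 5 times, whereas Rps26 is higher at 0, 3 and 9 h and lower at 12 h.

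Of the large subunit genes Rpl37, a small zinc-binding protein, differed most. It had 130, 137 and 139 CPM at 0 h, 136, 126 and 142 CPM at 3 h, 139, 122 and 136 CPM at 6 h, 126, 115 and 113 CPM at 9 h and 125, 120 and 125 CPM at 12 h in Nlrx1-deficient cells. In WT cells it had 174, 159 and 174 CPM at 0 h, 206, 197 and 210 CPM at 3 h, 185, 163 and 165 CPM at 6 h, 169, 191 and 195 CPM at 9 h and 136, 141 and 131 CPM at 12 h. No library overlapped at any time, although the 12 h gap was narrow. The log2 difference was −0.42 ± 0.03 over times (adjusted p = 2.44e-11), −0.60 at 3 h and −0.65 ± 0.07 at 9 h.

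Rpl5, which binds 5S ribosomal RNA and, when free, the p53 ligase Mdm2, and Rplp1 were the 2 members called lower at all 5 times. Rpl5 was picked out after its values were seen. Its log2 difference was −0.21 ± 0.02 over times (adjusted p = 1.05e-08). Rpl28 gave −0.30 over times and was called. Rpl3, which reaches into the peptidyl transferase centre, differed by −0.14 (adjusted p = 0.000495), and Rpl39, which lines the exit tunnel, by −0.25 (adjusted p = 2.5e-05). Rpl22, with a log2 difference of −0.11, missed the threshold (adjusted p = 0.0588).

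By single times, 13 members were called lower and 1 higher at 0 h, where 2.76% of all genes were called lower and 2.26% higher. At 3 h 22 were called lower and 1 higher (3.9% and 3.02% of all genes, 6.92% in any direction). At 6 h 22 were called lower and 0 higher (3.36% and 2.42%, 5.78% in any direction). At 9 h 28 were called lower and 1 higher (2.91% and 2.15%, 5.06% in any direction), and at 12 h 10 lower and 0 higher (0.678% and 1.23%). With only the libraries compared in the fit, the calls in any direction numbered 8, 15, 13, 16 and 0 from 0 to 12 h, and without a count filter 5 at 0 h and 3 at 12 h. Median log2 differences of the tested members were −0.09, −0.15, −0.14, −0.21 and −0.17 in that order, and at 12 h 74 of 83 lay below 0. Among the called members with the widest differences, beside those above, were Rps15 (−0.38) and Rpl28 (−0.34) at 0 h, Rps27a at 3 h (−0.49), Rps20 (−0.80) at 6 h, and Rpl21 (−0.31) and Rpl32 (−0.28) at 12 h.

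Single libraries carried some of these calls. Rps15 at 0 h was lost without WT replicate 2 (adjusted p = 0.0581) or Nlrx1-deficient replicate 1 (0.0895), and Rpl28 at 0 h without Nlrx1-deficient replicate 1 or 2 or WT replicate 1 or 3 (0.121 to 0.204). Rps20 at 6 h was lost without Nlrx1-deficient replicate 2 or 3 or WT replicate 1 or 2 (0.102 to 0.15), Rpl21 at 12 h without Nlrx1-deficient replicate 1 (0.0663), and Rpl32 at 12 h without WT replicate 1 (0.134) or Nlrx1-deficient replicate 1 (0.0744) or 3 (0.124). The calls at a time fell to 9 without WT replicate 2 and to 7 without Nlrx1-deficient replicate 1 of 0 h, to 14 without WT replicate 1 of 6 h, and to 5 without WT replicate 1 or 4 without Nlrx1-deficient replicate 1 of 12 h.

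**Figure D4:**
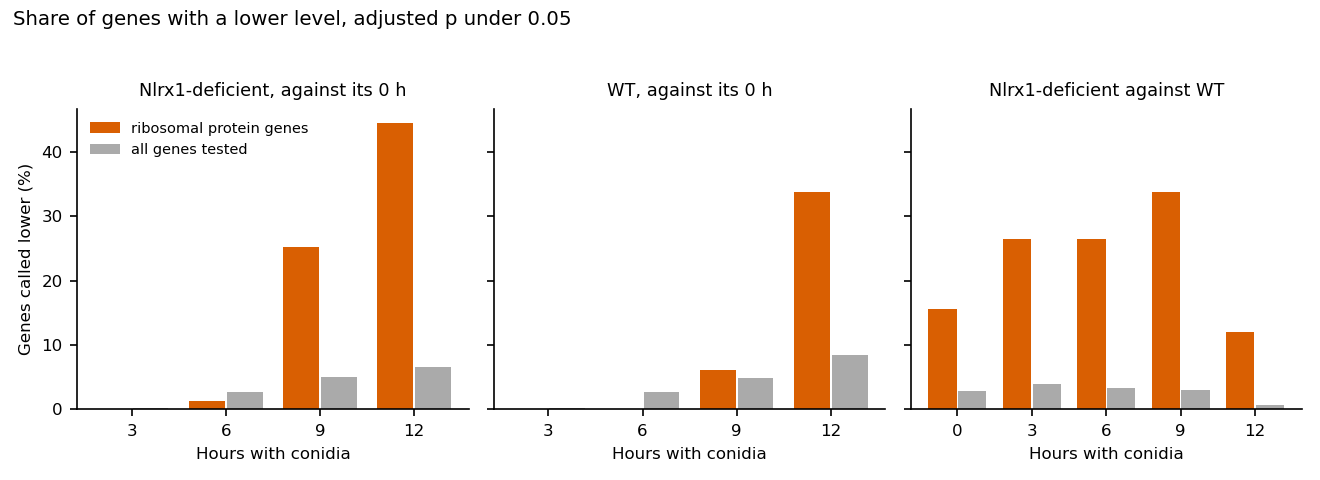
Percent of tested genes called lower (edgeR, adjusted p under 0.05) among the 83 ribosomal protein genes and among all 12393 genes, by comparison. The share among ribosomal protein genes is above that among all genes in each of the 5 genotype comparisons and at 9 and 12 h in both time courses, by the narrowest margin at 9 h in WT cells.

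These counts depend on how libraries are scaled. With library totals in place of TMM factors the median log2 difference of all genes moved to 0.09 at 0 h, 0.15 at 3 h and 0.11 at 6 h. The calls were then 4 higher and 3 lower at 0 h, 8 higher and 11 lower at 3 h, 1 higher and 9 lower at 6 h, 1 higher and 30 lower at 9 h, and 0 higher and 22 lower at 12 h. The shares of all genes called under this scaling are not reported here, so these counts cannot be set against a background. Relative to the median of all genes, the members' median was −0.10 at 0 h with TMM and −0.11 with library totals, and −0.17, −0.15, −0.21 and −0.17 at 3, 6, 9 and 12 h with either scaling. A change of scaling shifts all genes of a library alike. The likeness of these values was therefore fixed in advance and is no test of the gap. As a share of all counts, the members took 1.48% in Nlrx1-deficient and 1.49% in WT cells at 0 h, with overlap, and 1.30% and 1.56% at 9 h, without. Of the counts of protein-coding genes they took 2.14% in Nlrx1-deficient and 2.29% in WT cells at 0 h and 1.90% and 2.23% at 9 h, with no overlap at any of the 5 times.

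Other measures moved with genotype. Small RNA genes took 3.42, 3.62, 3.87, 3.42 and 3.33% of counts from 0 to 12 h in Nlrx1-deficient cells and 5.82, 6.58, 6.56, 6.15 and 3.92% in WT cells. With protein-coding genes alone in the totals, scaling and fit, 53 members were called over the mean of times, against 50 with all genes. That setting leaves out every other class of gene as well, so the part of small RNA genes alone was not tested. The summed level of 6 macrophage markers, all detected, was 1862 to 2407 CPM over Nlrx1-deficient and 2306 to 3230 CPM over WT libraries, and lower in all Nlrx1-deficient libraries of each time. The 7 neutrophil markers, of which Ly6g was at or near 0, summed to 181 to 533 CPM in Nlrx1-deficient and 361 to 956 CPM in WT libraries. The 10 dendritic cell markers summed to 6326 to 7475 CPM in Nlrx1-deficient and 5206 to 6207 CPM in WT libraries at 6 h, and to 5850 to 6216 CPM and 4461 to 5287 CPM at 12 h, higher in Nlrx1-deficient cells at both times, and overlapped at 0, 3 and 9 h. The 3 stromal markers, of which Dcn was 0 in 24 libraries, also had a higher sum in Nlrx1-deficient cells at 9 and 12 h. At 12 h the sum was 25.4 to 34.8 CPM against 15.2 to 25.2 CPM in WT cells. The summed level of 3 plasmacytoid dendritic cell markers was higher in Nlrx1-deficient cells at 6, 9 and 12 h. At 12 h it was 55.3 to 68.9 CPM against 44.3 to 54.8 CPM in WT cells. Siglech was 0 in 23 libraries, so this sum rests on Bst2 and Tcf4. The part of these cell markers in the ribosomal protein result was not tested.

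In WT cells the fall of ribosomal protein transcripts was called mostly at 12 h. The sum was 3.92% above 0 h at 3 h, with no overlap of libraries, overlapped with 0 h at 6 and 9 h, and was 9.09% lower at 12 h, without overlap. The stalk sum alone was 8.46% above 0 h at 3 h, 6.74% above at 9 h and 16.7% below at 12 h, each without overlap. At 3 h 1 member was called, Rpl37 (0.27 ± 0.07, adjusted p = 0.034), against 1.02% of all genes in any direction and 0.88% higher, and the call was lost without any 1 of the 6 libraries (adjusted p = 0.0519 to 0.239), so that no member was called. At 6 h Rps27 was the 1 member called, with 93, 109 and 104 CPM at 6 h and 80.5, 75.1 and 76.8 CPM at 0 h (log2 change 0.39 ± 0.10, adjusted p = 0.0141), against 5.96% of all genes in any direction and 3.29% higher. This call was lost without WT replicate 2 or 3 of either time (adjusted p = 0.0547 to 0.0864), which left no member called.

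At 9 h in WT cells, 5 members were called lower and 1 higher, against 4.81% and 5.57% of all genes (10.4% in any direction), so the lower calls stood near the background share. The lower ones were Rps27l (−0.35), Rps14 (−0.29), Rps26 (−0.28), Rpl3 (−0.28) and Rpl4 (−0.18), and Rps27 (0.30) was higher. Under library totals 7 were higher and 0 lower, and the share of all genes under that scaling is not reported here. Without a count filter 0 were called, and with only the libraries compared or by DESeq2 3. Genes on the opposite strand overlap Rps14 and Rpl3, as given above. The 6 calls fell to 1 without WT replicate 1 and 2 without replicate 2 of 0 h, and to 3 without replicate 2 and 2 without replicate 3 of 9 h. Rps27, Rps27l, Rps14, Rps26 and Rpl3 each lost the call without at least 1 of these libraries or replicate 3 of 0 h (adjusted p = 0.0503 to 0.338).

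At 12 h in WT cells 28 members were called lower and 1 higher, against 8.47% and 9.64% of all genes, and the median log2 change was −0.16. They were 10 small subunit, 14 large subunit and all 3 stalk genes, plus Rps19bp1 (−0.58), whose call was lost without any 1 replicate of 0 h or without replicate 2 or 3 of 12 h (adjusted p = 0.062 to 0.17). Rpl10a had 55.9, 57.6 and 61 CPM at 12 h and 73.4, 83.9 and 81.3 CPM at 0 h, without overlap, a fall by 0.45 on the log2 scale (edgeR adjusted p = 0.00617). Rpl28 had 83.3, 67.5 and 83.1 CPM at 12 h and 108, 98.2 and 110 CPM at 0 h, again without overlap, with a log2 change of −0.44 (adjusted p = 0.00164). Rplp1, with the values above, changed by −0.30 (adjusted p = 2.47e-05). Rpl31, at the mouth of the exit tunnel, rose, with 150, 158 and 148 CPM at 12 h and 138, 121 and 130 CPM at 0 h (0.23 ± 0.07, adjusted p = 0.0175), and the call was lost without replicate 2 of 0 h (0.105) or replicate 1 (0.0521) or 2 (0.0746) of 12 h. Under library totals 12 were lower and 3 higher, and without WT replicate 3 of 12 h 18 were lower and 1 higher. The shares of all genes under these settings are not reported here. In any direction 19 were called with only the libraries compared in the fit, 16 by DESeq2 and 11 without a count filter. The macrophage marker sum was 2306 to 2386 CPM at 12 h and 3082 to 3230 CPM at 0 h in WT cells, and the dendritic cell marker sum 4461 to 5287 CPM at 12 h and 5644 to 6828 CPM at 0 h. Both were apart between the times, and their part in the change of the members was not tested.

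In Nlrx1-deficient cells the sum overlapped with 0 h at 3 h, was lower by 4.60% at 6 h, 11.1% at 9 h and 13.8% at 12 h without overlap, and most calls came at 9 and 12 h. At 3 h edgeR called 0 members, against 1.22% of all genes in any direction and 1.03% higher, and DESeq2 called 0 members. Before adjustment 8 members had p under 0.05 by edgeR, and the share of all genes at that limit is not reported here. At 6 h Rpl4 was called, a protein that lines the exit tunnel, with 462, 495 and 499 CPM at 6 h and 577, 594 and 535 CPM at 0 h (−0.23, adjusted p = 0.0019), against 2.7% of all genes lower, 3.21% higher and 5.91% in any direction. Without replicate 3 of 0 h 3 members were called, and without replicate 3 of 6 h 2.

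At 9 h in Nlrx1-deficient cells 21 members were called lower and 0 higher, against 5.0% and 5.86% of all genes. The median log2 change was −0.18 and 78 of 83 lay below 0. Rpl4 had 456, 462 and 496 CPM at 9 h and 577, 594 and 535 CPM at 0 h, without overlap (−0.27, adjusted p = 0.00013). Rpl18 changed by −0.37 (adjusted p = 0.00766), and its call was lost without replicate 3 of 0 h (0.0966). Rpl14 had 138, 136 and 143 CPM at 9 h and 164, 243 and 234 CPM at 0 h, a spread that leaves its change at −0.62 ± 0.17 (adjusted p = 0.0179), and the call was lost without replicate 2 or 3 of 0 h or any 1 replicate of 9 h (0.0503 to 0.116). The count fell to 11 without replicate 2 of 0 h, to 11 without replicate 2 of 9 h, to 7 with only the libraries compared in the fit and to 3 without a count filter.

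At 12 h in Nlrx1-deficient cells 37 members were called lower and 0 higher, against 6.58% and 8.13% of all genes, with a median log2 change of −0.20. The calls held 12 small subunit, 20 large subunit and all 3 stalk genes and 2 paralogues. They numbered 22 with only the libraries compared in the fit and 22 without a count filter. Rpl18 fell by 0.43 ± 0.09 (adjusted p = 0.00127), Rps18 by 0.42 ± 0.10 (adjusted p = 0.00298), Rpl14 by 0.54 ± 0.17 (adjusted p = 0.0348) and Rpl29 by 0.42 ± 0.14 (adjusted p = 0.0387) on the log2 scale. Rps18 had 84.1, 76.5 and 82.2 CPM at 12 h and 109, 112 and 102 CPM at 0 h, and Rpl18 had 62.3, 53.9 and 58.2 CPM at 12 h and 71.1, 76.4 and 87.4 CPM at 0 h. Neither overlapped. The Rpl14 call was lost without replicate 2 or 3 of 0 h or 1 or 3 of 12 h (0.123 to 0.167), and the Rpl29 call without replicate 1 or 3 of 0 h or any 1 replicate of 12 h (0.0559 to 0.146). Rpl4 went on to −0.33 (adjusted p = 4.93e-06). The macrophage marker sum was 1862 to 2097 CPM at 12 h and 2199 to 2407 CPM at 0 h in Nlrx1-deficient cells, and the dendritic cell marker sum 5850 to 6216 CPM at 12 h and 6663 to 7295 CPM at 0 h. Their part in the change of the members was not tested. The 9 h and 12 h changes of a genotype share its 0 h libraries.

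The 12 h calls of the genotypes rest on separate 0 h and 12 h libraries. 16 members were lower in both, which is 43.2% of the 37 in Nlrx1-deficient cells and 57.1% of the 28 in WT cells. Over all tested genes 431 were lower in both, which is 52.9% of the 815 in Nlrx1-deficient cells and 41.0% of the 1050 in WT cells. Among them were Rpl13, Rpl29, Rpl3, Rpl32, Rpl36, Rpl5, Rpl7a, Rpl8, the 3 stalk genes, Rps27a, Rps3 and Rps9. A call in 1 genotype only does not show that the genotypes differ, and the test of that difference follows.

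**Figure D5:**
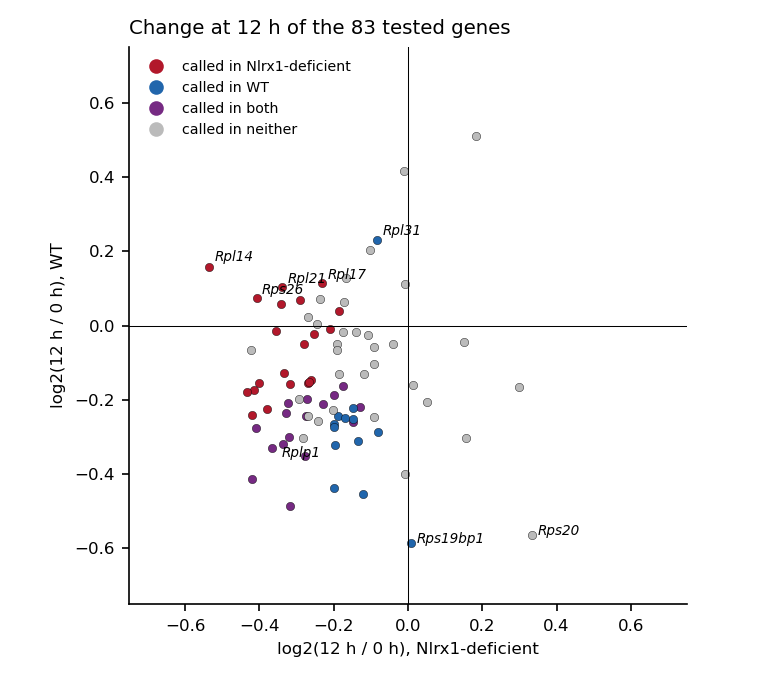
Log2 change from 0 h to 12 h of each tested ribosomal protein gene, in Nlrx1-deficient cells on the horizontal axis and in WT cells on the vertical axis, coloured by call. Most points lie below 0 on both axes, and 16 genes are called lower in both genotypes.

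The change from 0 h differed between genotypes in 4 members by the F test over the 4 later times (edgeR, adjusted p under 0.05), against 0.888% of all genes. They were Rps7 (adjusted p = 0.00278), Rps26 (adjusted p = 0.0134), Rpl37 (adjusted p = 0.0145) and Rplp1 (adjusted p = 0.0418). Rps7, Rpl37 and Rplp1 had their highest WT means at 3 h, and their lowest WT means at 12 h, where the genotypes lay closer than at 9 h. Each of WT replicates 1, 2 and 3 and Nlrx1-deficient replicate 3 of 12 h, when left out, brought the count to 2. The Rplp1 call was also lost with replicate number as a block (adjusted p = 0.0618), and without a count filter Rps7 was the 1 gene still called.

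By single times, the difference between the genotypes' changes from 0 h was called in 0 members at 3 h and 0 at 6 h. At both times edgeR called 0.0% of all genes. Before adjustment 10 members at 3 h and 7 at 6 h had p under 0.05, and the share of all genes at that limit is not reported here. Results of DESeq2 for these differences are not reported here. At 9 h Rplp1 was called (−0.32 ± 0.07, adjusted p = 0.0466), against 0.0161% of all genes lower and 0.0888% higher. At 12 h 3 were called lower and 0 higher, against 0.194% and 0.533% of all genes: Rps26 (−0.48 ± 0.10, adjusted p = 0.0165), Rpl21 (−0.44 ± 0.09, adjusted p = 0.0199) and Rpl17 (−0.35 ± 0.08, adjusted p = 0.0443). Rpl21 had 116, 139 and 133 CPM at 12 h and 162, 170 and 159 CPM at 0 h in Nlrx1-deficient cells, and 156, 163 and 164 CPM at 12 h and 157, 139 and 153 CPM at 0 h in WT cells. Rpl17, which surrounds the tunnel exit, had 195, 207 and 226 CPM at 12 h and 247, 240 and 249 CPM at 0 h in Nlrx1-deficient cells, and 254, 238 and 240 CPM at 12 h and 231, 218 and 227 CPM at 0 h in WT cells. In both genes the Nlrx1-deficient 12 h libraries lay below the Nlrx1-deficient 0 h and the WT 12 h libraries.

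Of the paralogues, Rps27l, a p53 target in mouse and human cells, had 43.1, 49.1 and 45 CPM at 12 h and 67.1, 58.1 and 49.9 CPM at 0 h in Nlrx1-deficient cells (−0.34, adjusted p = 0.026). Rpl7l1 had 74.1, 79.1 and 68 CPM at 12 h and 91.1, 96.3 and 89.2 CPM at 0 h in Nlrx1-deficient cells (−0.32, adjusted p = 0.0175). Both were called lower in Nlrx1-deficient cells over the mean of times, by −0.14 and −0.11. Rps27, the partner of Rps27l, also gave −0.14 (adjusted p = 0.0205), and Rpl7, the partner of Rpl7l1, gave −0.03 (adjusted p = 0.513). Rpl36al, at 42.4 to 62.6 CPM, and Rpl36a, at 55.8 to 120 CPM, gave 0.00 and −0.01, neither called. Rpl22l1, at 2.77 to 14.2 CPM, gave 0.13 ± 0.20 (adjusted p = 0.684). Rps27rt, a copy with a coding sequence identical to that of Rps27 (100% of bases), had 5.3 to 11 CPM and gave −0.29 (adjusted p = 0.0528). Reads of Rps27 and Rps27rt cannot be assigned surely, while coding identity was 87.7% for Rpl36a and Rpl36al, 76.2% for Rps27 and Rps27l and 70.2% for Rpl22 and Rpl22l1. Rps19bp1 had 9.42 to 20.1 CPM and gave −0.09 (adjusted p = 0.504).

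The pseudogene symbols left out by the rule showed a like gap, their sum being lower in Nlrx1-deficient cells by 8.92% at 0 h and 8.58% at 12 h, with no test of the sum. Ribosomal proteins with other names were lower too in Nlrx1-deficient cells over the mean of times. Rack1, a signalling scaffold on the small subunit, gave −0.43 ± 0.03 (adjusted p = 1.3e-11). Fau, a ubiquitin-like fusion with a small subunit protein, gave −0.27 ± 0.03 (adjusted p = 7.04e-07). At 12 h in WT cells Rack1 fell by 0.45 on the log2 scale.

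Over the mean of times, 12.2% of all genes were called lower and 12.6% higher. A list of 25 other genes held translation factors and TOP motif genes, among them noncoding Gas5 and Hnrnpa1, which is not a translation factor. Of these 25 genes 8 were lower and 1 higher, with a median of −0.06. The lower ones included the initiation factor subunit Eif3k (−0.28) and elongation factor Eef2 (−0.23), and Tpt1 was higher (0.16). At 12 h, 11 were lower and 0 higher in Nlrx1-deficient cells, against 6.58% and 8.13% of all genes. Hnrnpa1 changed by −0.62, Eif3m by −0.60 and the nucleolar chaperone Npm1 by −0.45. In WT cells at 12 h 8 were lower and 1 higher, against 8.47% and 9.64% of all genes. Hnrnpa1 changed by −0.45, Eef1d by −0.44, Eif3l by −0.40 and Tpt1 by 0.36.

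Of the ribosome biogenesis factors (40 genes) many were called lower from 6 h on in both genotypes, with median log2 changes at 12 h of −0.40 in Nlrx1-deficient and −0.46 in WT cells. Of all genes, 0.186, 2.7, 5.0 and 6.58% were called lower at 3, 6, 9 and 12 h in Nlrx1-deficient cells. In WT cells the shares were 0.137, 2.67, 4.81 and 8.47%. Of these factors, 1, 15, 22 and 18 were called lower at those times in Nlrx1-deficient cells. In WT cells 0, 18, 24 and 21 factors were, with 0 higher at any time in either genotype by edgeR. For WT at 3 h 6 had an unadjusted p under 0.05, and the share of all genes at that limit is not reported here. Dkc1, the pseudouridine synthase of small nucleolar particles, changed by −1.56 ± 0.22 in Nlrx1-deficient and −1.04 ± 0.19 in WT cells at 12 h. Polr1a, the largest subunit of RNA polymerase I, changed by −0.94 and −0.76 and nucleolin (Ncl) by −0.60 and −0.61 in the same order of genotypes. Between genotypes 11 were lower and 0 higher over the mean of times, against 12.2% and 12.6% of all genes. Dkc1 differed by −0.44, Mybbp1a by −0.29 and Polr1a by −0.26.

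Of 26 tested genes of Myc and mTORC1 signalling, 6 were higher and 4 lower at 12 h in Nlrx1-deficient cells. Of all genes 8.13% were higher and 6.58% lower there. In WT cells 2 of the 26 were higher and 3 lower, near the shares of all genes (9.64% and 8.47%). Myc, a driver of ribosome production, changed by −0.90 ± 0.17 in Nlrx1-deficient and −1.26 ± 0.16 in WT cells, and its antagonist Mxd1 by 1.5 and 0.95. Larp1 changed by −0.31 and −0.28. Over the mean of times 3 were higher and 7 lower in Nlrx1-deficient cells, against 12.6% and 12.2% of all genes. Myc differed by −0.39 ± 0.08 (edgeR adjusted p = 0.000296).

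Few mitochondrial ribosomal protein genes, all 78 of them tested, were called. Over the mean of times 7 were lower and 0 higher in Nlrx1-deficient cells, against 12.2% and 12.6% of all genes. The 78 genes had a median of −0.05, with Mrpl52 at −0.28. Their sum overlapped between genotypes at 0, 3 and 6 h and was lower in Nlrx1-deficient cells by 6.38% at 9 h and 7.74% at 12 h. At 12 h against 0 h, 4 were lower and 0 higher in Nlrx1-deficient cells, against 6.58% and 8.13% of all genes. In WT cells 2 were lower and 1 higher, against 8.47% and 9.64%.

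Small nucleolar RNAs, which guide modification of ribosomal RNA, are cut from introns of ribosomal protein genes. 58 lay inside 30 members on the same strand, and 31 in 19 hosts were tested. They lack the poly(A) tail that the library kit selects for, and reads of an unspliced intron cannot be told from them, so their counts cover an unknown part of them. Over the mean of times 18 were lower and 2 higher in Nlrx1-deficient cells, against 12.2% and 12.6% of all genes. The lower ones included Snord58b (−1.06), Snora62 (−1.06) and Gm26448 (−1.12), and the higher ones were Snord100 (0.41) and Snord35a (0.37). The median of the 31 over the mean of times was −0.46, and at 3 h 16 of 31 were lower, against 3.9% of all genes. At 12 h edgeR called 0 of the 31 between genotypes, against 1.9% of all genes in any direction. Before adjustment 4 of the 31 had p under 0.05, and the share of all genes at that limit is not reported here. At 12 h against 0 h 0 were called in Nlrx1-deficient cells, against 14.7% of all genes in any direction. There 3 had an unadjusted p under 0.05, with the share of all genes at that limit again not reported. In WT cells 10 of the 31 were lower, against 8.47% of all genes. DESeq2 results for this list are not reported here. The most abundant, Snord21 in Rpl5 (mean 181 CPM), changed by 0.02 in Nlrx1-deficient and −0.43 (adjusted p = 0.0019) in WT cells at 12 h, while its host changed by −0.17 and −0.16. Snord15b in Rps3 (140 CPM) and Snord34 (109 CPM) and Snord32a (50.6 CPM) in Rpl13a were also abundant.

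The authors' deposited tables of 13 comparisons list only genes with a log2 fold change beyond 0.5 in size, so most members here are below their reach. In the authors' deposited table for Nlrx1-deficient cells, Rpl14 is the 1 member listed at 9 h (−0.62) and at 12 h (−0.54). Their genotype tables give WT over Nlrx1-deficient, so a positive value there means lower in Nlrx1-deficient cells. The authors' deposited table at 3 h lists Rps7 (0.73) and Rpl37 (0.60). The authors' deposited table at 6 h lists Rps20 (0.80), Rps7 (0.59) and Rpl41 (0.52). The authors' deposited table at 9 h lists Rps20 (0.89), Rps7 (0.76), Rpl37 (0.65), Rps23 (0.59) and Rplp1 (0.57) among others, and no member is in the tables of the 0 and 12 h genotype comparisons.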

How the data were processed

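Poly(A)-selected, strand-specific libraries were sequenced from 30 samples, 3 in each of 10 groups. The deposited table holds raw counts per gene, per the file headers. Trimmomatic 0.35, HISAT2, StringTie and DESeq2 and the build GRCm38 are named in the submitters' processing notes, without role or order, while strand setting and annotation release are not given there. The authors also deposited a table of normalized counts, a signal that was not used, and 13 tables with log2 fold changes and p-values from the authors' comparisons. Each of these lists only genes past their limits. No column of sample values was left unmapped (0 columns).

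Gene names came from GENCODE M21 (54495 of 54532 IDs matched) and promoter sequences from RefSeq. Genes with enough counts by filterByExpr (minimum count 10) were kept, 12393 genes with 98.7% of counts. Counts were scaled by TMM and fitted with edgeR 4.0.16 (quasi-likelihood, robust, 1 coefficient per group, all 30 libraries, 20 residual degrees of freedom) in R 4.3.3. A prior count of 2 was used only for the log2 CPM of the correlations between replicate numbers. P-values were adjusted by the Benjamini-Hochberg method over all genes tested, and a gene was called at an adjusted p under 0.05. The standard error is the log2 difference over the square root of F. CPM is counts per 1000000 of TMM-scaled library size, and its precision is limited by 1722384 to 3509429 counts per library. The fits were tested on simulated data. Alternatives were other scalings, no count filter, protein-coding genes alone, only the libraries compared, a replicate block, DESeq2 1.42.0 and leaving out each library.

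The members, lists and tests were chosen with earlier results of these data known. Named genes are a fixed set of stalk, signalling-linked and paralogue members, up to 4 called members with the largest log2 change per direction and comparison, and up to 3 per direction in other lists. Ncl, Larp1, Rpl5, the genes listed as shared at 12 h and the unsteady genes were named after their values were seen. Some members are counted but not reported by name here.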

Additional observations from a re-analysis of the deposited data

Results flagged for a closer look

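In 4 genes the change from 0 h differed between genotypes by the interaction test over the 4 later times. The edgeR adjusted p was 0.00278 for Rps7, 0.0134 for Rps26, 0.0145 for Rpl37 and 0.0418 for Rplp1. Rplp1 was no longer called with replicate number as a block (0.0618) or when any 1 of 24 of the 30 libraries was left out (0.053 to 0.124), and Rps26 and Rpl37 each lost the call without some 12 h libraries, 3 for Rps26 and 2 for Rpl37. Rps7 kept it in each of these. At single times, the change from 0 h in Nlrx1-deficient cells minus that in WT cells, on the log2 scale, was past the threshold for Rplp1 at 9 h (−0.32) and, at 12 h, for Rps26 (−0.48), Rpl21 (−0.44) and Rpl17 (−0.35). Rps26 went from the higher to the lower side of WT between 9 and 12 h, and the 12 h levels of Rpl21 and Rpl17 lay below 0 h in Nlrx1-deficient cells, with log2 changes of −0.34 and −0.23, against 0.10 and 0.11 in WT cells. The macrophage and neutrophil marker sums and the small RNA share, all lower in Nlrx1-deficient cells, and at 12 h the dendritic cell marker sum, higher in them, moved with genotype as well, and their part in these differences was not tested.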

How the results depend on the processing

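The calls of members changed with the scaling, the count filter and the set of libraries in the fit. Numbers are members called in any direction, and the shares of all genes called under these settings are not reported here. With library totals alone they were 0 at 3 h, 7 at 9 h (7 higher and 0 lower, the opposite direction to TMM) and 15 at 12 h in WT cells, and between genotypes 7 at 0 h (4 higher and 3 lower, again the opposite balance), 10 at 6 h, 22 at 12 h and 18 for the interaction. Without a count filter they were 3 at 9 h and 22 at 12 h in Nlrx1-deficient cells, 0 at 3 h, 0 at 6 h, 0 at 9 h and 11 at 12 h in WT cells, and between genotypes 5 at 0 h, 3 at 12 h and 1 for the interaction. With only the libraries compared they were 0 at 6 h, 7 at 9 h and 22 at 12 h in Nlrx1-deficient cells, 0 at 3 h, 3 at 9 h and 19 at 12 h in WT cells, and between genotypes 8, 15, 13, 16 and 0 at 0, 3, 6, 9 and 12 h. With DESeq2 they were 0 at 3 h, 3 at 9 h and 16 at 12 h in WT cells and 9 between genotypes at 0 h. Protein-coding genes alone gave 2 at 3 h in WT cells. The cause of these shifts was not tested, nor was the part of the fewer samples in the fits of compared libraries.

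Leaving out each library in turn gave 0 to 0, 1 to 3, 11 to 18 and 25 to 35 calls in Nlrx1-deficient cells at 3, 6, 9 and 12 h, and 0 to 0, 0 to 1, 1 to 8 and 19 to 25 in WT cells. Between genotypes it gave 7 to 12, 16 to 23, 14 to 19, 22 to 27 and 4 to 8 from 0 to 12 h, 48 to 54 for the mean of times and 2 to 5 for the interaction. Of 49 results on named genes, 23 kept their call under every alternative run and 26 lost it in at least 1, and none changed sign.

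Replicate numbers did not pair the samples: the 135 correlations between same-numbered libraries ran from −0.0736 to 0.0956. With replicate number as a block the calls were 0, 1, 22 and 36 in Nlrx1-deficient cells, 1, 1, 6 and 29 in WT cells, 13, 22, 22, 27 and 8 between genotypes, 50 for the mean of times and 3 for the interaction. Rplp1 for the interaction (adjusted p = 0.0618), Rpl29 at 12 h in Nlrx1-deficient cells and Rpl28 between genotypes at 0 h were no longer called.

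With 3 libraries a group and about 2492886 counts each, members of a few CPM such as Rpl22l1 had wide errors, and absence of a call does not show equal levels.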
